A study of Mus musculus with 46 samples.

Results

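The 6 h state of stimulated cultures labelled Ics was compared with the unstimulated 0 h state across all genes. The comparison used 8 of the 46 libraries of the series: 4 libraries titled as stimulated and collected at 6 h, and 4 titled as unstimulated and collected at 0 h. They were chosen by title alone, and no measured value entered the choice. The series is a mouse study of intravenous immunoglobulin (IVIg, pooled antibody given as a drug) in mucous membrane pemphigoid modelled with antibodies to laminin 332, a protein that anchors epithelium to its basement membrane. Besides blood, leukocyte and skin libraries it holds these cultures, which bear only the name Ics as tissue and source.

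What Ics stands for, which cells were cultured, and the strain, age and dose are not given by the labels used here. Titles of the stimulated libraries read stimul_Ics with the time, and those at 0 h read unstimulated without Ics. Ics may therefore name the stimulus and not the cells. It also fills the tissue field of all 12 libraries, and no label explains it or otherwise names a stimulus. The shared extraction protocol names bone marrow derived neutrophils and monocytes as well as whole blood, and a low-input library primed on the poly(A) tail. The 12 Ics libraries carry the numbers m1 to m4 at 0, 3 and 6 h. No label says whether a number marks an animal, a pool or a well. The p-values therefore measure the spread between these libraries, which may be technical. Some marker sums ranked the numbers in the same order at every time, as given with the processing alternatives. A separate treatment field disagreed with the collection time in 11 of the 12 libraries and was not used. No unstimulated culture at 6 h was analysed here, so the stimulus and 6 h in culture cannot be told apart in any result below. The 4 libraries at 3 h entered the fit for its estimate of spread, and their means are given only as a time point between.

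Neutrophils are short-lived granulocytes that leave the marrow with most of their granule proteins already made. On stimulation they can change the levels of many transcripts. Antioxidant genes are classically driven by the factor Nrf2 through antioxidant response elements, lysosome genes by TFEB and its relatives through E-box-like CLEAR elements, and amino acid supply by ATF4 in the integrated stress response. These are background facts about such cells and not results.

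The labels name no cell type for these libraries, so marker lists were read instead. Levels are given in CPM, the estimated counts of a gene per 1000000 of its library, scaled by TMM factors. All 17 neutrophil markers were measured, and their summed level was 104000 to 110000 CPM at 0 h and 70900 to 76800 CPM at 6 h, far above that of any other marker list. Markers of monocytes and macrophages summed to 204 to 244 CPM at 0 h and 733 to 872 CPM at 6 h; in that list Csf1r, Adgre1 and Cd68 rose, 6 members fell, and C1qa and C1qb were at 0 in all 4 libraries at 6 h.

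Each library held between 24827887 and 29502869 estimated counts. Of 46264 gene symbols, 14996 passed the filter on low counts and were tested. By edgeR's quasi-likelihood test with Benjamini-Hochberg adjustment at 0.05, 4439 genes (29.6%) were higher and 4560 (30.4%) lower at 6 h, so a changed gene was the rule, with 60.0% called in either direction. At least 2-fold higher were 1388 genes (9.26%) and at least 2-fold lower 2006 (13.4%). The median log2 change of all genes tested was -0.06. Scaling by library totals alone moved that median by -0.16 and the split of calls to 3455 higher and 5785 lower. Changes are read relative to this shift.

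**Figure D1:**
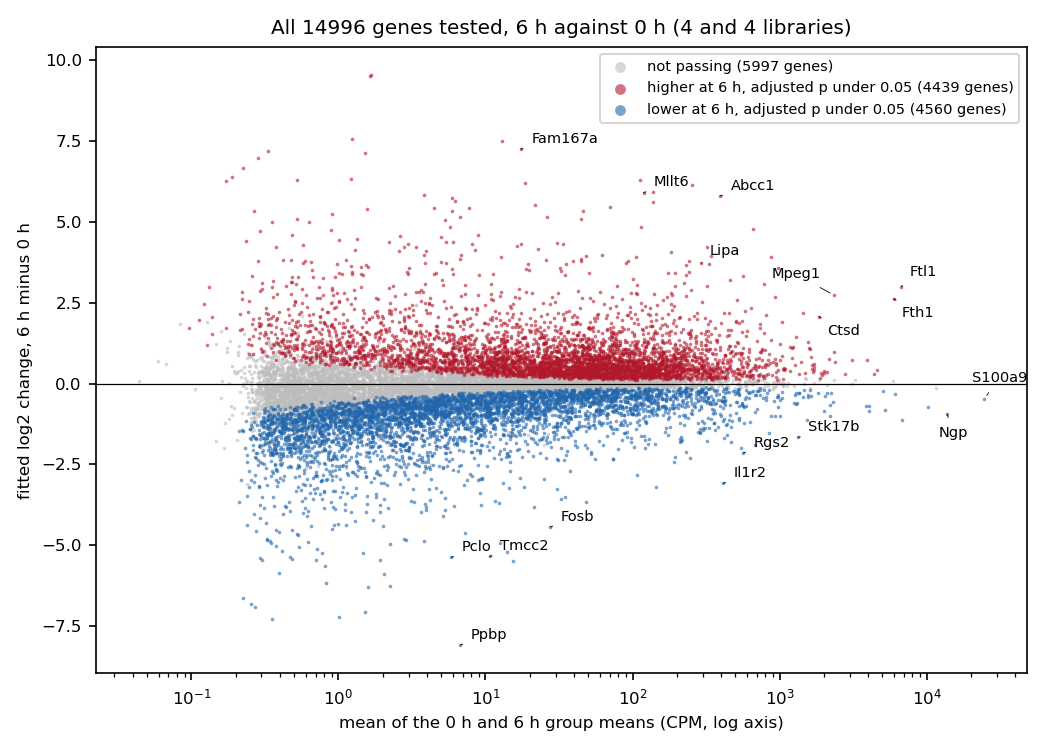
Fitted log2 change at 6 h against 0 h (vertical axis) for each of the 14996 genes tested, against the mean of the 2 group means in CPM (horizontal, log axis); red points were higher and blue points lower at an adjusted p under 0.05, grey points did not pass. Changes ran in both directions at every level, with Fam167a at 7.26 and Pclo at -5.38, and among abundant transcripts Ngp and S100a9 lay below the line and Ftl1 and Fth1 above it.

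The transcript pool itself changed shape. For this count alone, CPM was taken from library totals without TMM factors, and the count with TMM factors was not taken. At 0 h between 12123 and 12377 genes reached 1 CPM, and at 6 h between 11223 and 11482, with no overlap between the groups. Genes with at least 1 count, which no scaling affects, numbered 21397 to 21925 at 0 h and 20474 to 20852 at 6 h. The 10 most abundant genes took 11.9 to 12.8% of counts at 0 h and 8.7 to 9.53% at 6 h, and the top 100 took 28.9 to 29.6% and 26 to 26.8%. Fewer genes were thus detected at 6 h, while the leading genes took a smaller share.

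The 10 largest gains in CPM among genes that passed were led by the ferritin chains, which build the shell that stores iron. The ferritin light chain Ftl1 (GRCm38 chr7:45457944-45459884) stood at 1450, 1510, 1430 and 1570 CPM in m1 to m4 at 0 h, and at 12200, 10800, 15000 and 9870 CPM at 6 h. The heavy chain Fth1 (chr19:9980598-9985098), which carries the iron-oxidising site, stood at 1490, 1670, 1760 and 1700 CPM and then at 11000, 9170, 12100 and 8770 CPM. Every 6 h library lay above every 0 h library for both, with m3 highest and m4 lowest at 6 h. The log2 changes were 3.00 ± 0.11 (SE, adjusted p = 1.94e-11) and 2.63 ± 0.10 (adjusted p = 3.11e-11). Together the chains went from 0.329 to 0.357% of all counts to 1.85 to 2.56%. Both genes have near-identical processed copies elsewhere in the genome, so reads may be split among them.

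Other large gains were in genes of the endolysosome and the cell surface. Mpeg1, which codes for perforin-2, a pore-forming protein of phagocytes, was at 592, 593, 611 and 635 CPM at 0 h and at 3810, 4020, 4400 and 4030 CPM at 6 h. The groups lay far apart, and the log2 change was 2.74 ± 0.07 (adjusted p = 1.26e-12). The C-type lectin gene Clec4d rose from 520 ± 27.5 to 2380 ± 274 CPM (mean ± SD, n = 4 each) and the integrin gene Itgam from 2970 ± 50.1 to 4900 ± 358 CPM. Grina, which codes for a membrane protein of the Golgi and endoplasmic reticulum, went from 1580 ± 75 to 3110 ± 272 CPM, and the class I antigen-presentation gene H2-D1 from 2340 ± 139 to 3850 ± 213 CPM. H2-D1 belongs to a family with similar sequences, and its counts are uncertain to that extent.

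By fold, the 15 largest rises among genes with at least 10 CPM at 6 h included transcripts close to absent at 0 h. Fam167a was at 0.189, 0.307, 0.172 and 0.221 CPM at 0 h and at 36.2, 30.6, 37.2 and 34.2 CPM at 6 h, a log2 change of 7.26 ± 0.23 (adjusted p = 6.55e-12). Mllt6, a chromatin-associated protein gene, was at 3.53, 3.59, 5.25 and 3.16 CPM and then at 237, 233, 287 and 178 CPM, a log2 change of 5.91. Neither gene's groups came near each other. Nab2, which codes for a corepressor of EGR factors, changed by 5.52, Ralgds, which codes for an exchange factor for the GTPase Ral, by 5.47, and the POU-domain factor gene Pou2f2 by 5.35. Tnfrsf8, the CD30 receptor gene, changed by 5.74, and Smpdl3b, a lipid-modifying phosphodiesterase gene, by 5.66. The remaining members of the 15 were Havcr2, Nqo1, Tlr9, Prdx1, Srxn1, Icam1, Cd83 and Abcc1.

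Some transcripts went from near the limit of detection to a clear level, or the reverse. Under a rule of a mean of at least 5 CPM in 1 group and every library under 0.5 CPM in the other, 11 genes were counted as gained: Cdk18, Fam167a, Gm4832, Havcr2, Il10, Ldlrad4, Saa3, Smpdl3b, Tnfrsf8, Wwtr1 and Zc3h12c. Il10, the gene of an anti-inflammatory cytokine, was at 0.0631, 0.239, 0.137 and 0.0735 CPM at 0 h and at 9.35, 6.56, 9.42 and 4.63 CPM at 6 h. Saa3, an acute-phase protein gene, reached 8.69 ± 1.40 CPM and Cdk18, a kinase gene, 10.3 ± 3.27 CPM. By the same rule 5 genes were lost, and these are described with the other losses. Il10, Saa3, Cdk18, Ldlrad4 and Wwtr1 were named after their values were seen.

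Pathway lists and gene families are described by how many tested members rose or fell, to be read against 29.6% and 30.4% for all genes. They were written with earlier results of these data known and carry no test of their own.

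**Figure D2:**
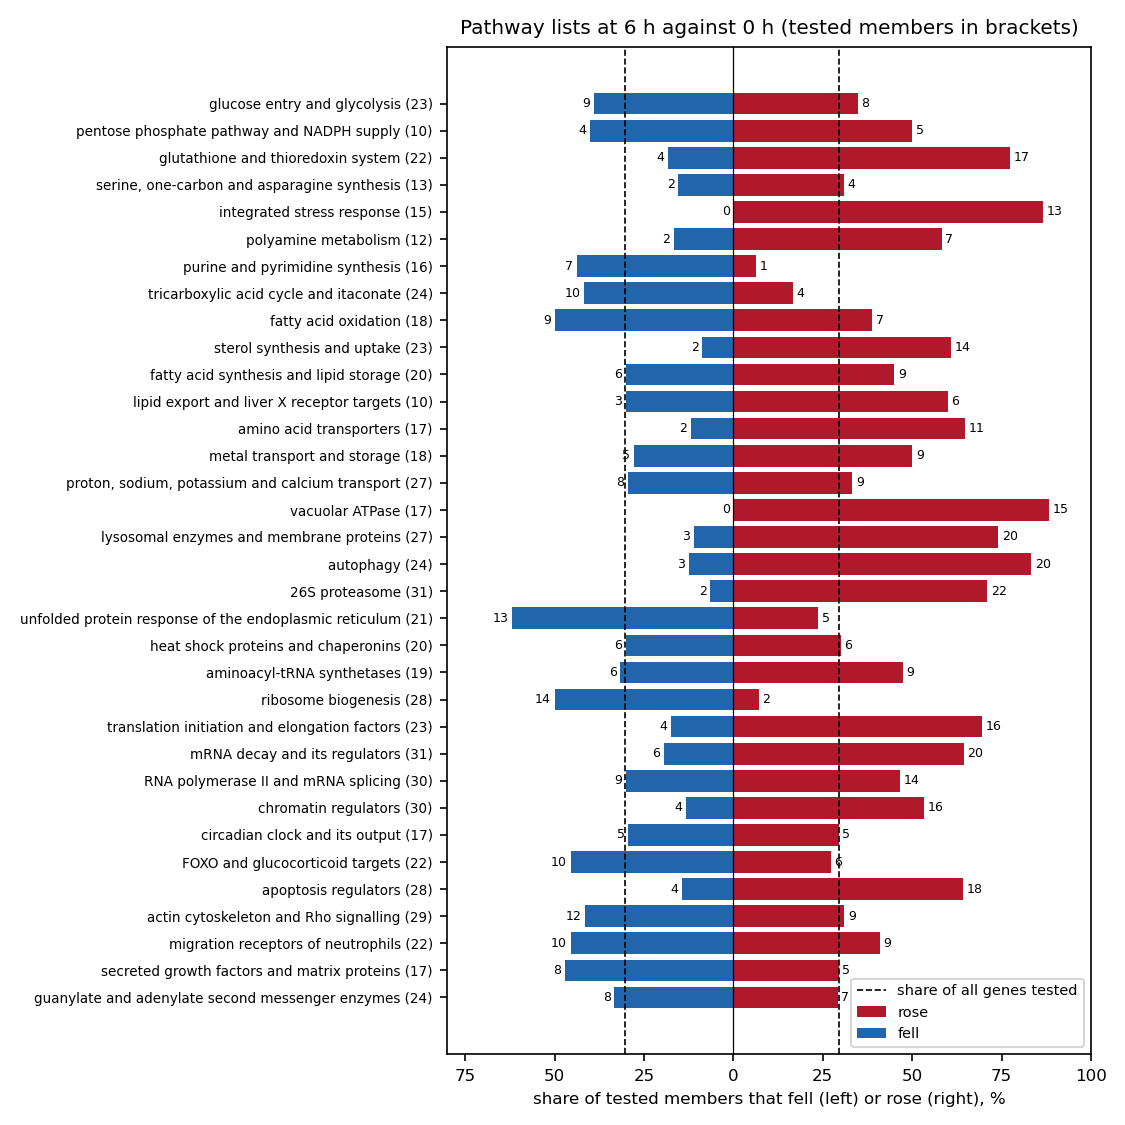
Share of tested members of each pathway list that rose (red, right) or fell (blue, left) at 6 h against 0 h by edgeR at an adjusted p under 0.05, with the number of genes at each bar and the tested members in brackets; dashed lines mark the shares of all genes tested, 29.6% and 30.4%. The vacuolar ATPase (15 of 17), the integrated stress response (13 of 15) and autophagy (20 of 24) had mostly rising members, the unfolded protein response (13 of 21) and ribosome biogenesis (14 of 28) many falling ones.

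Thiol metabolism had some of the largest changes. In the list of glutathione and thioredoxin genes 17 of 22 rose and 4 fell, with a median log2 change of 0.84. Glutathione synthesis rose at each step measured: Gclc and Gclm, the catalytic and modifier subunits of the rate-limiting ligase, and Gss, the second enzyme. Gclm (chr3:122245557-122270732) was at 39.8, 37.3, 44.8 and 44.2 CPM at 0 h and at 654, 576, 788 and 538 CPM at 6 h. Gclc (chr9:77754535-77794485) was at 8.80, 7.55, 6.42 and 7.79 CPM and then at 209, 202, 313 and 153 CPM. The lowest 6 h library of either gene was many times its highest 0 h library, and the log2 changes were 3.94 ± 0.12 and 4.84 ± 0.21 (adjusted p = 4.96e-12 and 1.08e-10). Gss changed by 3.52, Ggct, which breaks down glutamyl peptides, by 3.71, Esd, an esterase that frees glutathione from formaldehyde adducts, by 3.79, and Txnrd1, which reduces thioredoxin, by 3.69. Catalase (Cat), which breaks down hydrogen peroxide, went from 14.0 ± 0.763 to 88.3 ± 13.0 CPM, nearly all of it after 3 h, when its mean was 16.2 CPM.

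The list was not uniform. Gpx1, the abundant cytosolic glutathione peroxidase gene, was at 660, 668, 646 and 695 CPM at 0 h and at 291, 245, 253 and 266 CPM at 6 h. It fell by 1.34 on the log2 scale (adjusted p = 3.42e-09). The microsomal transferase gene Mgst1 fell by 0.98, the mitochondrial thioredoxin reductase gene Txnrd2 changed by -1.64 at under 1 CPM on average, and Mgst2 by -0.35. These 4 were all the fallen members. Gpx4, the peroxidase for lipid peroxides, rose by 0.76.

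Promoter sequence was set beside these genes because their members moved together. The antioxidant response element core TGACNNNGC was searched on both strands in the 250 bases before each annotated start (RefSeq, GRCm38.p6). It was found in 16.6% of 976 promoters of genes at least 2-fold higher, in 12.5% of 1255 promoters of genes at least 2-fold lower, in 13.7% of all tested genes and in 11.5% of all promoters. In the glutathione and thioredoxin list 5 of 19 promoters held it, those of Gclm, Ggct, Gsta3, Mgst1 and Txnrd1. A match is a stretch of letters and not a shown binding site: Mgst1 fell and Gsta3 did not pass. The windows of 3 risen antioxidant genes and the proteasome gene Psmb5 are printed 5′ to 3′ on the gene's strand with the match in capitals, at chr4:116685436-116685504 (+) for Prdx1, chr3:122245393-122245461 (+) for Gclm, chr10:82859084-82859152 (+) for Txnrd1 and chr14:54618024-54618052 (-) for Psmb5. For all but Psmb5 the capitals are the core as read on the opposite strand.
Prdx1: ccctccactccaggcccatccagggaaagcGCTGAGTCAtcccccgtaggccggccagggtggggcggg
Gclm: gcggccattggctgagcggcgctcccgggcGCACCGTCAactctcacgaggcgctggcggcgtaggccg
Txnrd1: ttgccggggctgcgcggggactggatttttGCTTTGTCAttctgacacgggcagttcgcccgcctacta
Psmb5: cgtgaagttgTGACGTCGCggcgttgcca
The matches began 133, 134, 92 and 47 bases before the RefSeq start used. The Txnrd1 window lies inside the GENCODE span of that gene (chr10:82833951-82897712), so the start used for it is not the outermost one.

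Peroxiredoxin Prdx1 (chr4:116685544-116700822), which reduces peroxides with electrons from thioredoxin, had the widest spread among these. Its libraries were at 8.87, 6.90, 5.66 and 6.40 CPM at 0 h and at 547, 409, 686 and 349 CPM at 6 h. The 3 h mean of 51 CPM shows that most of the gain came after that time. Prdx1 has processed copies, and the split of its reads is uncertain.

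Glucose metabolism did not move as a block. Of 23 tested genes of glucose entry and glycolysis 8 rose and 9 fell, with a median of -0.20 against -0.06 for all genes. The liver-type phosphofructokinase gene Pfkl, which codes for the committing step, was at 21.7, 22.7, 27.2 and 22.5 CPM at 0 h and at 152, 143, 157 and 126 CPM at 6 h (log2 2.62 ± 0.09, adjusted p = 1.67e-11). Its 3 h mean was 30.4 CPM. The muscle-type gene Pfkm changed by -0.97 and the platelet-type gene Pfkp by -0.34, so the 3 isoform genes differed in direction. Aldolase Aldoa rose from 404 ± 13.7 to 1000 ± 124 CPM and pyruvate kinase Pkm from 1320 ± 21.8 to 1680 ± 119 CPM.

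At the entry step the direction was mostly down. Hexokinase 3 (Hk3), which traps glucose as its phosphate, was at 862, 911, 890 and 841 CPM at 0 h and at 369, 377, 394 and 413 CPM at 6 h. Its groups were far apart and it fell by 1.17 on the log2 scale (adjusted p = 1.04e-10). Hk1 fell by 0.40, and the glucose carrier genes Slc2a1 and Slc2a3 fell by 0.59 and 0.40. The lysosomal-type hexose carrier gene Slc2a6 rose by 0.69. In the list of 10 genes for the pentose phosphate pathway and NADPH supply, 5 rose and 4 fell. Pgd, the second dehydrogenase, went from 1010 ± 22.3 to 2150 ± 193 CPM and transaldolase (Taldo1) from 737 ± 12.0 to 1600 ± 155 CPM, while the entry enzyme gene G6pdx fell by 0.26. Under scaling by library totals this list had 3 higher and 5 lower members, and the small rise of transketolase (Tkt, log2 0.25) no longer passed.

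Genes of mitochondrial fuel use were mixed. In the list of the tricarboxylic acid cycle and itaconate 4 of 24 rose and 10 fell, with a median of -0.07, close to the -0.06 of all genes. The pyruvate dehydrogenase gene Pdha1 fell by 0.46 and the oxoglutarate dehydrogenase gene Ogdh by 0.72, and the isocitrate dehydrogenase genes Idh3a and Idh2 changed by -1.86 and -1.81. Citrate synthase (Cs) rose by 0.44. The largest change was in Acod1, which turns the cycle intermediate aconitate into itaconate. Acod1 was at 101, 170, 192 and 138 CPM at 0 h and at 1830, 1640, 2260 and 1420 CPM at 6 h, a log2 change of 3.57 ± 0.20 (adjusted p = 1.51e-09), below its 3 h mean of 3420 CPM. Of 18 genes of fatty acid oxidation 7 rose and 9 fell, both above the shares of all genes. The carnitine transferase gene Cpt1a, whose protein admits fatty acids to mitochondria, fell from 114 ± 23.9 to 42.8 ± 3.99 CPM; Acaa2 and Etfb changed by -1.92 and -1.89, while Hadha rose by 0.44.

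Transcripts coded in the mitochondrial genome fell together. Of 13 tested, 11 fell and none rose, with a median of -0.55, and their share of counts was 0.529 to 0.637% at 0 h and 0.437 to 0.463% at 6 h. The complex I gene mt-Nd1 was at 209, 159, 173 and 157 CPM and then at 93.2, 99.5, 94.6 and 90.4 CPM (log2 -0.89, adjusted p = 4.73e-06). The cytochrome oxidase gene mt-Co1 went from 1770 ± 158 to 1320 ± 19.5 CPM. Among 38 nuclear-coded complex I subunit genes 3 rose and 14 fell, and among 78 mitochondrial ribosomal protein genes 17 rose and 26 fell.

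Sterol genes leaned upwards. Of 23 tested genes of sterol synthesis and uptake 14 rose and 2 fell (Ebp and Sc5d), with a median of 0.74. Hmgcs1, the synthase that feeds the mevalonate pathway, was at 38.3, 39.4, 38.8 and 34.4 CPM at 0 h and at 118, 107, 105 and 104 CPM at 6 h. Its log2 change was 1.53 ± 0.06 (adjusted p = 9.31e-11) and its 3 h mean 54.8 CPM. Squalene synthase (Fdft1), squalene epoxidase (Sqle) and lanosterol demethylase (Cyp51), later steps of the same pathway, changed by 1.67, 2.01 and 1.68. Fdft1 and Sqle were no higher at 3 h, with means of 10.5 and 2.78 CPM against 11.9 and 4.25 CPM at 0 h.

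Genes of sterol handling and export rose beside synthesis. Npc1, which moves cholesterol out of lysosomes, was at 36.1, 38.2, 41.2 and 38.7 CPM at 0 h and at 184, 195, 244 and 189 CPM at 6 h, a log2 change of 2.40 ± 0.10 (adjusted p = 1.38e-10). Its soluble partner Npc2 rose by 1.30. The cholesterol exporter gene Abca1 was at 4.32, 5.60, 5.18 and 7.83 CPM and then at 79.0, 84.6, 89.4 and 81.0 CPM, below the 3 h mean of 158 CPM. In the list of lipid export and liver X receptor targets 6 of 10 rose and 3 fell, among the latter Apoe by 1.81. Of 20 genes of fatty acid synthesis and storage 9 rose and 6 fell: the acyl-CoA synthetase gene Acsl5 rose by 2.74 and Acsl1 fell by 0.88, the triglyceride synthase gene Dgat2 rose by 1.01 and Dgat1 fell by 0.81. The desaturase gene Scd1 fell from 1.29, 0.273, 0.412 and 0.551 CPM to 0, 0.0355, 0 and 0.0364 CPM, too close to 0 for a fold.

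Amino acid supply was another rising group. Of 17 amino acid transporter genes 11 rose and 2 fell, with a median of 0.67. Slc7a11 (chr3:49892526-50443614), the light chain of the cystine importer that feeds glutathione synthesis, was at 95.8, 111, 113 and 113 CPM at 0 h and at 1650, 1670, 1790 and 1430 CPM at 6 h. Its heavy chain Slc3a2 (chr19:8706882-8723369) was at 70.6, 75.1, 74.0 and 64.9 CPM and then at 582, 551, 682 and 477 CPM. The groups did not overlap for either chain, and the log2 changes were 3.92 ± 0.11 and 3.01 ± 0.10 (adjusted p = 3.77e-12 and 1.31e-11). Slc7a11 had reached 1800 CPM by 3 h, whereas Slc3a2 was at 290 CPM then. The large neutral amino acid carrier gene Slc43a2 rose by 2.51, Slc38a2, which imports small neutral amino acids, by 1.48 and the taurine carrier gene Slc6a6 by 0.92. The glutamine carrier gene Slc1a5 and the arginine-sensing carrier gene Slc38a9 fell by 1.06 and 0.27.

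Genes of the integrated stress response rose with them: 13 of 15 rose and none fell, with a median of 1.17. The factor genes Atf5 and Ddit3 changed by 3.80 and 1.64, and Trib3, a pseudokinase gene, by 3.09. The folate enzyme gene Mthfd2 went from 8.83 ± 0.946 to 50.6 ± 4.47 CPM and asparagine synthetase (Asns) from 22.8 ± 2.51 to 39.0 ± 4.23 CPM. The core of the amino acid response element, TGATGNAA on either strand, lay in 5 of 14 promoters of the list (Atf3, Chac1, Nupr1, Slc7a11 and Vldlr). It lay in 3.28% of promoters of genes at least 2-fold higher, 3.27% of genes at least 2-fold lower, 2.6% of tested genes and 3.91% of all promoters, so the share did not separate higher from lower genes. The window of the most changed member is chr3:50443642-50443709 (-), with the match in capitals 66 bases before the start.
Slc7a11: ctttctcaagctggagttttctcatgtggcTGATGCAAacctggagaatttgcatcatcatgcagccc
This window holds the letters 2 times, once on each strand, and Vldlr, which also holds them, did not pass.

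Across all solute carriers direction was balanced. Of 218 tested SLC genes 68 rose (31.2%) and 69 fell (31.7%), near the 29.6% and 30.4% of all genes. Their median was -0.01, and by totals alone 58 were higher and 79 lower. The 36 ABC transporter genes leaned down, with 9 rising and 16 falling. The export pump gene Abcc1 (chr16:14361558-14475737), whose protein removes glutathione conjugates and leukotriene C4, was the extreme. Abcc1 was at 14.8, 13.1, 16.5 and 11.1 CPM at 0 h and at 757, 784, 936 and 631 CPM at 6 h. No value lay between the groups; the log2 change was 5.81 ± 0.15 (adjusted p = 1.49e-12) and the 3 h mean 272 CPM. At the other end Abcg3 went from 11.3 ± 0.923 to 0.816 ± 0.300 CPM (log2 -3.79), and the monocarboxylate carrier gene Slc16a7 changed by -2.85.

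**Figure D3:**
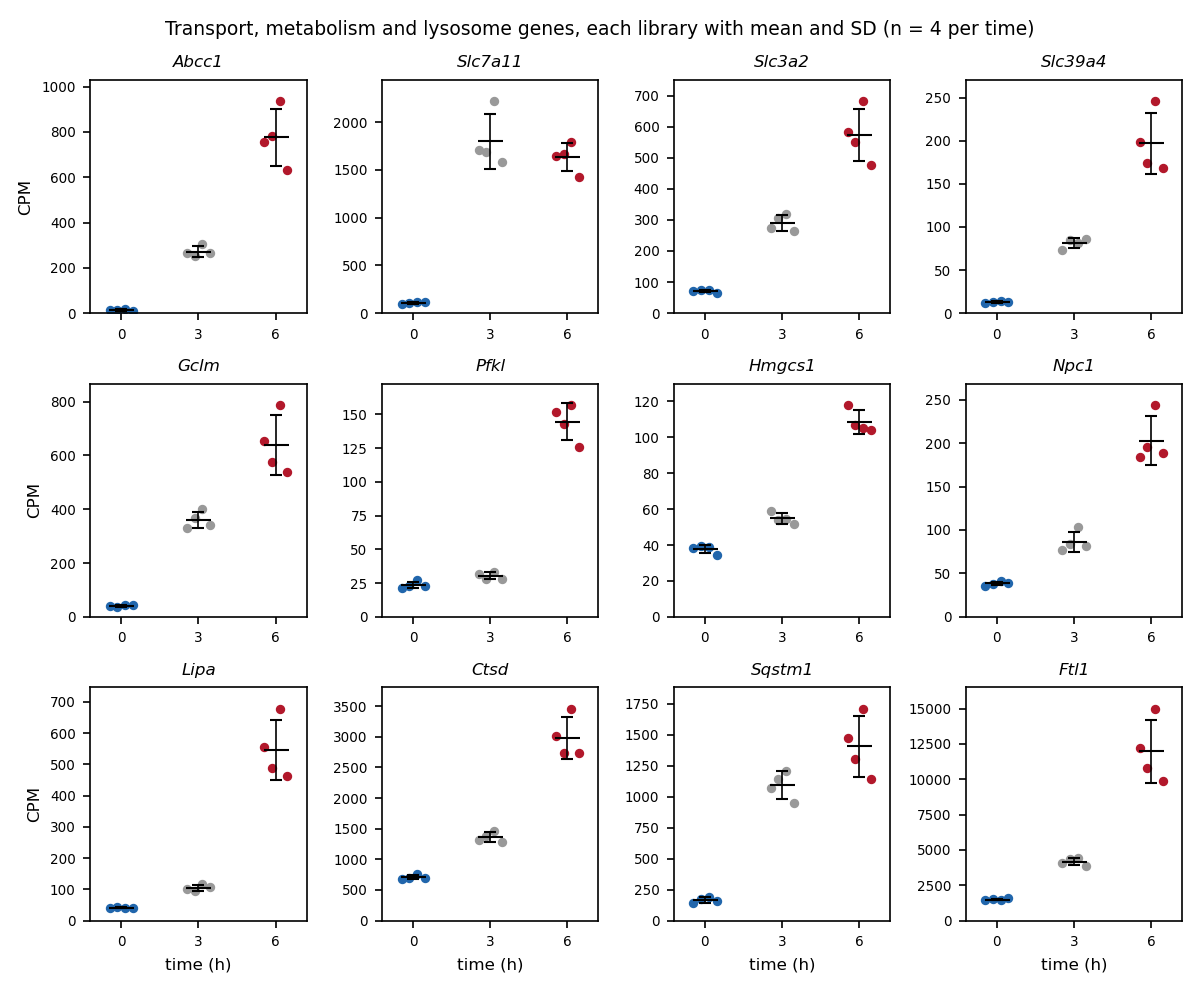
CPM (vertical axes, each from 0) of 12 transport, metabolism and lysosome genes in every library at 0, 3 and 6 h (horizontal axes); points are libraries m1 to m4 from left to right, bars the mean ± SD of 4. For all 12 genes each 6 h library lay above each 0 h library, as for 27.7% of all genes tested; Slc7a11 was already at 1800 CPM at 3 h, while Pfkl and Lipa were at 30.4 and 104 CPM then.

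Metal transport genes rose in 9 of 18 tested cases (50%, against 29.6% of all genes). Of the same list 5 fell (27.8%), near the 30.4% of all genes. The zinc importer gene Slc39a4 was at 12.0, 12.6, 14.4 and 12.8 CPM at 0 h and at 199, 174, 246 and 169 CPM at 6 h, the largest rise among the SLC genes with at least 10 CPM. Slc40a1, which codes for ferroportin, the iron exporter, was at 332, 372, 319 and 344 CPM and then at 949, 1170, 1250 and 1100 CPM. Slc11a1, the phagosomal metal pump gene, was at 207, 211, 236 and 196 CPM and then at 786, 758, 987 and 667 CPM. All 3 were separate between the times, with log2 changes of 3.93, 1.71 and 1.91 (adjusted p at most 1.68e-09). Mtf1, which codes for the zinc-sensing factor, fell by 1.61, and its classical target, the metallothionein gene Mt1, fell by 1.56.

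Ion pump and channel genes were mixed, with 9 rising and 8 falling of 27, and 6 and 9 by totals alone. The channel gene Orai2 of store-operated calcium entry rose from 288 ± 8.76 to 604 ± 13.1 CPM, the ATP-gated channel gene P2rx4 by 1.94 and the potassium channel gene Kcnj2 by 1.29. The calcium pump gene Atp2a3, which refills the endoplasmic reticulum, was at 663, 679, 663 and 610 CPM at 0 h and at 217, 241, 172 and 239 CPM at 6 h (log2 -1.59, adjusted p = 1.84e-09). The chloride cotransporter gene Slc12a2 passed as lower at levels under 1 CPM at both times, and no fold is drawn.

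Lysosome genes rose broadly. Of 27 genes of lysosomal enzymes and membrane proteins 20 rose and 3 fell, among them Ctsa and Gusb, with a median of 0.86. Lipa, the acid lipase that frees cholesterol from lipoprotein, was at 39.4, 42.6, 41.6 and 40.7 CPM at 0 h and at 554, 489, 678 and 462 CPM at 6 h. The protease gene Ctsd (chr7:142375911-142388038) was at 686, 690, 755 and 700 CPM and then at 3020, 2730, 3460 and 2740 CPM. Both groups were tight at 0 h and wholly higher at 6 h, with log2 changes of 3.73 ± 0.11 and 2.08 ± 0.08 (adjusted p = 4.96e-12 and 2.55e-11). The protease genes Ctsz and Ctsb rose by 2.79 and 2.24, the membrane protein gene Lamp1 by 1.55 and the calcium channel gene Mcoln1 by 1.23.

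The proton pump that acidifies these compartments moved with them. Of 17 vacuolar ATPase genes 15 rose and none fell, with a median of 0.72; Atp6v0a2 (0.10) and Atp6v0d2 (-1.09) did not pass. Atp6v1e1, a stalk subunit, was at 140, 142, 144 and 148 CPM at 0 h and at 394, 381, 439 and 385 CPM at 6 h (log2 1.48 ± 0.06, adjusted p = 1.37e-10). Atp6v1c1 rose by 1.40, the proteolipid gene Atp6v0c by 1.01 and the catalytic subunit gene Atp6v1a by 0.87. By totals alone 13 of 17 were higher and none lower.

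The CLEAR core TCACGTGA, which reads the same on both strands, was found in 3.28% of promoters of genes at least 2-fold higher and in 0.956% of those at least 2-fold lower, against 1.76% of tested genes and 0.907% of all promoters. It lay in 4 of 21 promoters of the lysosome list (Ctsa, Ctsd, Gla and Mcoln1) and in 1 of 11 of the vacuolar ATPase list (Atp6v1a). Ctsa held it and fell. The windows are chr7:142387909-142387936 (-), chr8:3500463-3500490 (+) and chr16:44139354-44139421 (-). Each lies before a RefSeq start but inside the GENCODE span of its gene, so the starts used are not the outermost ones. Capitals mark the core, and the first pair, like that of Psmb5, is kept short because an annotated first exon lies close.
Ctsd: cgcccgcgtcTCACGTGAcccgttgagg
Mcoln1: ggcgccccgcTCACGTGAccgcggcgca
Atp6v1a: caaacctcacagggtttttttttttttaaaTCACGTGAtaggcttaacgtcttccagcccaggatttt
Tfeb, which codes for a factor that binds such elements, rose by 0.88. It was named after its values were seen, and its part in the lysosome changes was not tested.

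Autophagy genes, which deliver cargo to lysosomes, rose in 20 of 24 cases and fell in 3, with a median of 0.44. Sqstm1, the cargo receptor p62, was at 138, 173, 190 and 161 CPM at 0 h and at 1470, 1300, 1710 and 1140 CPM at 6 h. Gabarapl1, an ATG8 protein of the autophagosome membrane, was at 5.05, 4.40, 5.28 and 5.07 CPM and then at 58.9, 53.1, 72.1 and 52.6 CPM. These were the extremes of the list, with log2 changes of 3.08 and 3.58, and most other members moved by less than 1. Atg3, the conjugating enzyme for ATG8 proteins, fell by 0.74.

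Of 31 genes of the 26S proteasome 22 rose and 2 fell (Psmd6 and Psmd14), with a median of 0.35 that became 0.19 by totals alone. Psmb5, the chymotrypsin-like subunit of the standard particle, was at 32.2, 29.5, 30 and 30.6 CPM at 0 h and at 115, 102, 133 and 102 CPM at 6 h (log2 1.89 ± 0.09, adjusted p = 1.90e-10). The lid and base genes Psmd7 and Psmd1 rose by 1.67 and 1.20. The other standard catalytic genes, Psmb6 and Psmb7, rose by 0.25 and 0.47, and the immune-type counterparts Psmb8, Psmb9 and Psmb10 changed by -0.49, -0.42 and -0.84.

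Chaperones of the endoplasmic reticulum went the other way. Of 21 genes of its unfolded protein response 13 fell and 5 rose, with a median of -0.55. Hsp90b1, a chaperone, was at 161, 155, 133 and 157 CPM at 0 h and at 61.5, 56.4, 56.9 and 56.7 CPM at 6 h (log2 -1.39, adjusted p = 3.27e-10). Dnajb9 and the response's factor Xbp1 fell by 1.65 and 1.23. Hyou1, a chaperone of the same compartment, was at 34.1, 37.6, 37.0 and 34.5 CPM and then at 229, 243, 277 and 220 CPM (log2 2.76), and Herpud1 rose by 1.18. Plasma cells are rich in these chaperones, and their transcripts fell too: Jchain was at 285, 365, 235 and 409 CPM at 0 h and at 47.5, 82.8, 40.8 and 69.0 CPM at 6 h, and the secretory thiol isomerase gene Txndc5 changed by -3.76. The summed level of 14 B cell markers was 883 to 2400 CPM at 0 h and 287 to 928 CPM at 6 h, with Igll1 at 0 at both times and Vpreb1 at 0 at 6 h; the part of these cells in the chaperone result was not tested.

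The list of heat shock proteins and chaperonins was even, with 6 rising and 6 falling of 20, and 4 and 10 by totals alone. Hspa1a, the inducible HSP70, was at 0.789, 0.820, 0.961 and 0.625 CPM at 0 h and at 14.2, 9.18, 18.1 and 9.54 CPM at 6 h, and shares long stretches of sequence with Hspa1b. The groups did not overlap, and the log2 change was 3.99 ± 0.29 (adjusted p = 2.96e-08).

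The machinery of protein synthesis split by task. Of 28 ribosome biogenesis genes 14 fell and 2 rose, with a median of -0.36; Rrp1b, a nucleolar protein gene, went from 25.3 ± 4.69 to 3.89 ± 0.632 CPM and Nop58, a core protein gene of guide-RNA particles, from 11.2 ± 0.941 to 3.40 ± 0.820 CPM. Of 23 translation factor genes 16 rose and 4 fell, with a median of 0.48. Eif4b, a helper of the cap-binding helicase, was at 131, 121, 122 and 120 CPM at 0 h and at 366, 363, 379 and 380 CPM at 6 h (log2 1.59 ± 0.05, adjusted p = 3.77e-12). The elongation factor genes Eef1a1 and Eef2 rose by 1.23 and 0.83; Eef1a1 has processed copies. Cytosolic ribosomal protein genes rose in 40 of 82 cases and fell in 5, but their share of counts overlapped between the times (0.66 to 0.818% and 0.715 to 0.824%), and by totals alone 19 rose and 6 fell. Of 19 aminoacyl-tRNA synthetase genes 9 rose and 6 fell, led by Aars at 2.66 and Sars at 1.32, and this order turned by totals alone, to 7 and 8.

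The largest falls among genes with at least 10 CPM at 0 h came from several sources. Tmcc2, a membrane protein gene of the endoplasmic reticulum, was at 19.0, 19.5, 24.5 and 20.4 CPM at 0 h and at 0.274, 0.709, 0.817 and 0.255 CPM at 6 h. Pclo, best known from the presynaptic zone of neurons, was at 9.28, 10.5, 14.4 and 11.6 CPM and then at 0.171, 0.461, 0.195 and 0.255 CPM. Fosb, an AP-1 subunit gene of the immediate early class, was at 38.9, 70.0, 43.3 and 59.2 CPM and then at 1.88, 2.84, 2.53 and 2.51 CPM. Their 0 h and 6 h values were separated by wide gaps, and the log2 changes were -5.34, -5.38 and -4.44 (adjusted p at most 1.11e-09). In bulk RNA, fewer cells of a type and less RNA per cell cannot be told apart, which holds for every fall given here.

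Other large falls were in transcripts of minor cell types. Platelet chemokine gene Ppbp was at 18.0, 11.1, 15.7 and 9.15 CPM at 0 h and at 0, 0, 0.0389 and 0.146 CPM at 6 h, and no fold is drawn from values this close to 0. All 14 tested red cell genes fell, with a median of -3.69, and their summed level went from 129 to 347 CPM at 0 h to 11.5 to 27.1 CPM at 6 h. Of 12 platelet genes 9 fell and none rose, from a summed 151 to 158 CPM to 50.6 to 64.2 CPM, with Treml1 at 0 at 6 h. Eosinophil markers fell in 6 of 8 cases, from 63.7 to 81.0 CPM to 15.0 to 21.0 CPM. The primary granule genes Mpo and Elane, made by granulocyte precursors, went from 89.6 ± 31.3 to 6.97 ± 3.80 CPM and from 60.6 ± 20.3 to 5.04 ± 2.59 CPM. Immunoglobulin variable genes fell in 94 of 147 cases and rose in 1, with a median of -1.85; these genes resemble each other closely, and counts of single ones are uncertain.

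The 5 genes lost by this rule, most still detected at low level, included Col1a2, Cxcl12, Pclo and Ppbp. Col1a2, a collagen chain of fibroblasts, was at 10.6, 5.91, 8.61 and 4.67 CPM at 0 h and at 0.171, 0.284, 0.234 and 0.328 CPM at 6 h. Cxcl12, a chemokine of marrow stroma, went from 5.43 ± 1.31 to 0.190 ± 0.0444 CPM. Without m4 of the 0 h libraries 3 genes met the rule. Of 7 tested stromal and endothelial markers 3 fell and 1, Col1a1, rose by 1.25. The summed level of this list did not fall, at 47.3 to 58.7 CPM at 0 h and 51.7 to 67 CPM at 6 h, and Cdh5 and Emcn were at 0 at both times.

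**Figure D4:**
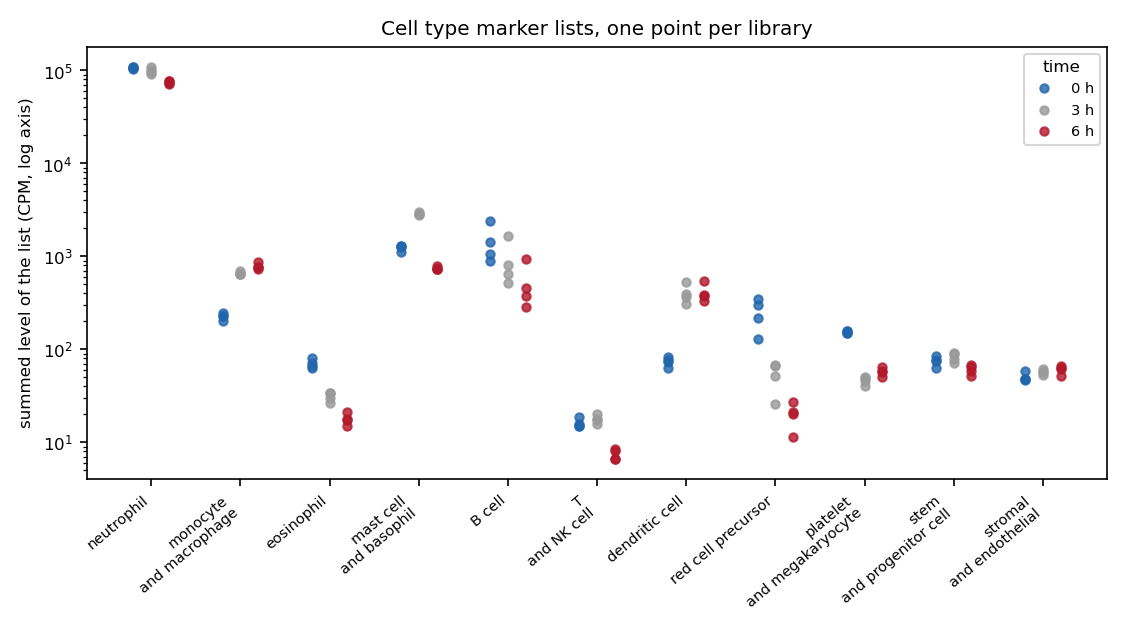
Summed level of each cell type marker list in CPM (vertical, log axis), with 1 point per library at 0 h (blue), 3 h (grey) and 6 h (red). Red cell markers lay at 129 to 347 CPM at 0 h and 11.5 to 27.1 CPM at 6 h, neutrophil markers at 104000 to 110000 and 70900 to 76800 CPM, while monocyte and macrophage markers lay at 204 to 244 and 733 to 872 CPM.

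The neutrophils' own abundant transcripts fell by smaller factors. Of the 17 neutrophil markers 13 fell, 1 rose and 3 did not pass, with a median of -0.70. Ngp, a granule protein gene, was at 17600, 18200, 18500 and 17900 CPM at 0 h and at 9910, 9530, 8990 and 9280 CPM at 6 h. Lyz2, the lysozyme gene, was at 13000, 13200, 12200 and 13000 CPM and then at 7930, 7550, 7330 and 8140 CPM. Both pairs of groups were far apart, with log2 changes of -0.94 and -0.73 (adjusted p = 1.16e-08 and 1.43e-07). S100a9, Ltf, Camp, Mmp8 and Lcn2 were also among the 10 largest losses in CPM, with log2 changes from -1.13 to -0.47. Tmsb4x, the actin-binding thymosin gene, went from 6670 ± 365 to 3790 ± 214 CPM, and Anxa1, a lipid-binding annexin gene, from 2950 ± 31.7 to 1470 ± 59.4 CPM.

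Other neutrophil markers changed by different amounts. Il1r2, the decoy receptor for interleukin 1, was at 586, 768, 849 and 761 CPM at 0 h and at 87.0, 81.7, 91.0 and 90.1 CPM at 6 h. Trem1, an activating receptor, was at 676, 719, 785 and 747 CPM and then at 215, 201, 218 and 199 CPM. The changes were -3.08 ± 0.10 and -1.81 ± 0.06 (adjusted p = 8.06e-12 and 1.50e-11). Cd177 and Ly6g fell by 1.12 and 0.93, Wfdc21 by 0.91, and Retnlg and Mmp9 by 0.31 and 0.24. The growth factor receptor gene Csf3r rose from 3970 ± 192 to 4840 ± 385 CPM (log2 0.28, adjusted p = 0.00311), a rise that did not pass by totals alone. The remaining markers did not pass: S100a8 was at 12200 ± 1700 and 11100 ± 717 CPM, Cxcr2 at 955 ± 78.0 and 860 ± 47.1 CPM, and the MAX-binding factor gene Mxd1 at 2240 ± 137 and 2420 ± 42.1 CPM.

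Among migration receptors 9 of 22 rose and 10 fell. Adora2a, the receptor through which adenosine restrains neutrophils, was at 0.347, 0.512, 0.240 and 0 CPM at 0 h and at 11.0, 12.6, 11.8 and 10.9 CPM at 6 h. The platelet-activating factor receptor gene Ptafr changed by 1.94 and Fpr1, whose protein senses bacterial formyl peptides, by 1.30. Ptafr was at 191, 239, 250 and 235 CPM at 0 h and at 800, 838, 969 and 889 CPM at 6 h. The chemokine receptor gene Ccr1 was at 689, 723, 737 and 771 CPM and then at 317, 342, 339 and 350 CPM. Groups were separate for Ptafr and Ccr1, which moved in opposite directions.

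Signalling genes moved in both directions. Rgs2, which shortens G protein signals, was at 731, 956, 1030 and 971 CPM at 0 h and at 191, 198, 214 and 234 CPM at 6 h (log2 -2.14, adjusted p = 9.26e-10). The kinase gene Stk17b was at 1850, 1990, 2180 and 2080 CPM and then at 632, 631, 621 and 678 CPM. Among 16 dual-specificity phosphatase genes 6 rose and 4 fell: Dusp1 and Dusp6 fell by 1.35 and 1.54, whereas Dusp16, which acts on stress kinases, rose from 5.97 ± 1.92 to 91.1 ± 14.6 CPM. In the list of FOXO and glucocorticoid targets 10 of 22 fell and 6 rose. Those that fell included Tsc22d3 (-1.82), Klf2 (-1.50), Zbtb16 (-1.98) and the clock gene Per1 (-1.81). Those that rose were Bcl6, Foxo4, Fkbp5, Ccng2, S1pr1 and Arrdc3. The linker histone gene H1f2 was at 313, 415, 401 and 382 CPM and then at 77.5, 83.9, 85.0 and 100 CPM.

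**Figure D5:**
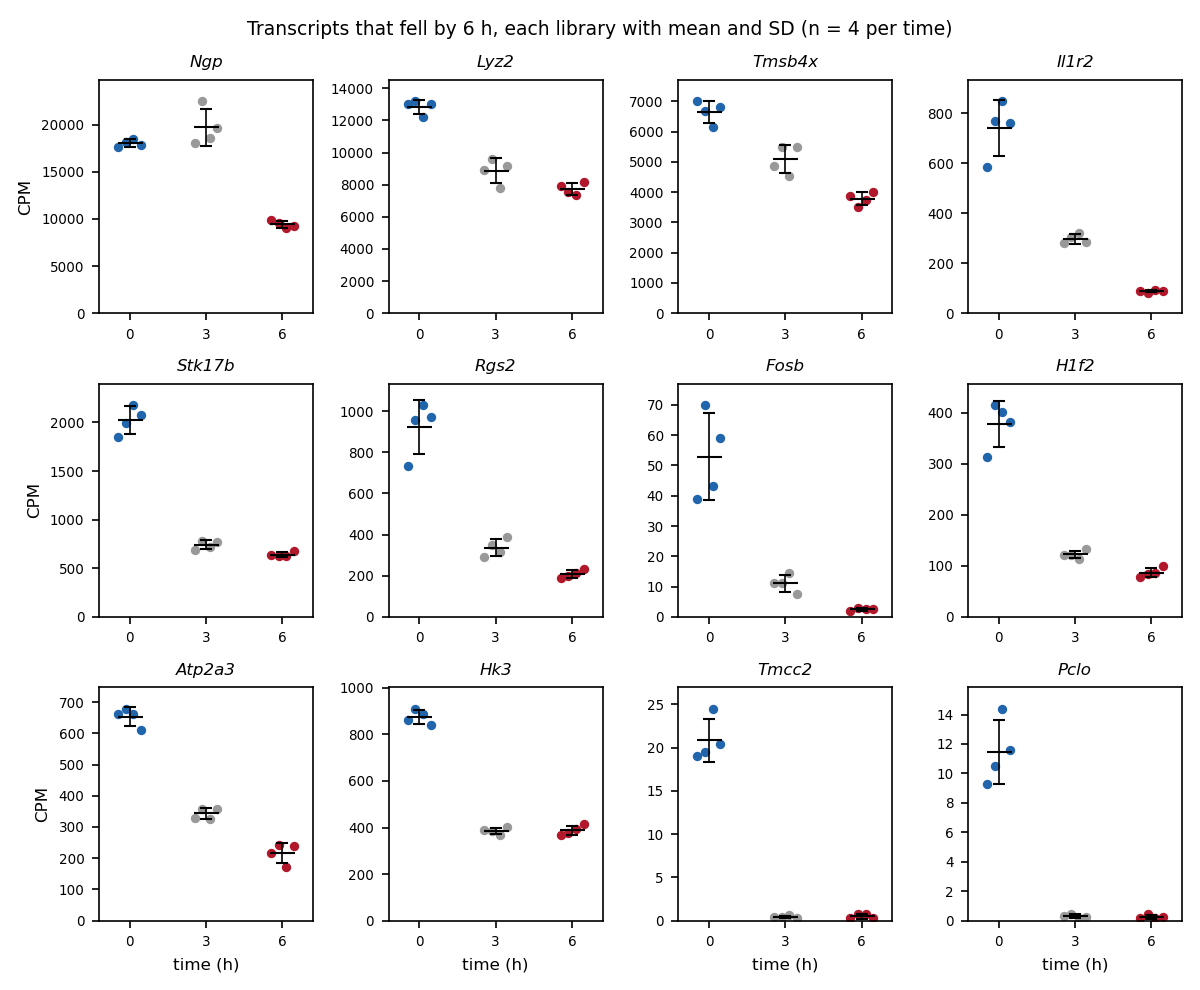
CPM (vertical axes, each from 0) of 12 transcripts that fell, in every library at 0, 3 and 6 h (horizontal axes); points are libraries m1 to m4 from left to right, bars the mean ± SD of 4. Each 6 h library lay below each 0 h library, as for 27.6% of all genes tested; Ngp was still at a mean of 19700 CPM at 3 h, whereas Stk17b and Hk3 had reached 741 and 386 CPM by then.

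Genes of mRNA decay leaned upwards in number. Of 31 genes of mRNA decay and its regulators 20 rose and 6 fell, with a median of 0.37. The endonuclease gene N4bp1 was at 232, 236, 234 and 237 CPM at 0 h and at 673, 655, 709 and 638 CPM at 6 h, the decapping helicase gene Ddx6 rose by 0.78, and Zc3h12c, of the Regnase family, went from 0.381 ± 0.0753 to 11.1 ± 2.73 CPM. Its relative Zc3h12d changed by -1.75. Of 30 genes of RNA polymerase II and splicing 14 rose and 9 fell, and by totals alone 9 rose and 11 fell. Ccnt1, the cyclin of the elongation kinase, fell by 1.61 and the splicing factor gene Srsf5 by 0.96. Of 30 chromatin regulator genes 16 rose and 4 fell, none by 2-fold.

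By annotated class, of 11890 protein-coding genes 32.9% rose and 29.7% fell, with a median of 0.00. Long intergenic RNA genes had a median of -0.28 (17.7% rose and 29.7% fell of 774), antisense genes -0.28 (16.8% and 32.2% of 686), processed pseudogenes -0.27 and sense intronic genes -0.43 (9.28% and 39.2% of 97). Sense intronic and antisense genes overlap other genes, and strand was not given in the sources used here, so their counts are uncertain. Across 5 equal bins of annotated exon length the median ran from -0.15 in the shortest to 0.00 in the longest, with 23.7% and 33.6% of genes rising.

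Monocyte and macrophage markers split. Csf1r, the receptor for macrophage growth factor, was at 134, 127, 141 and 163 CPM at 0 h and at 496, 467, 572 and 510 CPM at 6 h. Adgre1, the F4/80 antigen gene, was at 24.1, 25.7, 26.1 and 29.3 CPM and then at 192, 182, 191 and 169 CPM. Their log2 changes were 1.86 and 2.80, and Cd68 rose by 1.62; these were the 3 risen members of 13. The monocyte markers Ccr2 and F13a1 changed by -2.46 and -2.54, with 6 members falling in all. The integrin gene Itgax was the only riser of 8 dendritic cell markers, from 61.4 ± 7.65 to 398 ± 88.7 CPM.

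Genes that govern survival changed on both sides. Of 28 apoptosis regulators 18 rose and 4 fell, with a median of 0.39. The pro-apoptotic genes Bax, Bcl2l11 and Bbc3 changed by 3.43, 2.44 and 2.02 and the death receptor gene Fas by 1.86. Bax was at 8.49, 8.64, 8.78 and 8.46 CPM at 0 h and at 95.0, 79.8, 117 and 78.6 CPM at 6 h. Gadd45b, a stress-kinase regulator gene, was at 27.1, 34.5, 32.7 and 34.8 CPM and then at 602, 546, 763 and 517 CPM. On the protective side the near-identical Bcl2a1a, Bcl2a1b and Bcl2a1d changed by 3.38, 3.84 and 3.84, a split among them that is uncertain, and Birc3 by 1.28, while Mcl1 (-0.08) did not pass.

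Sites for NF-kB were set beside these changes with a 10-base form of the NF-kB site, searched on both strands. It lay in 16 promoters (1.64%) of genes at least 2-fold higher and in 3 (0.239%) of those at least 2-fold lower, against 0.435% of tested genes and 0.414% of all promoters. A shorter form, GGGANNTCC, separated the groups less. That form lay in 7.58% of the higher and 4.14% of the lower genes, against 5.52% of tested genes and 4.11% of all promoters. Nfkbia, the inhibitor that closes the pathway's loop, and the chemokine gene Cxcl2 show the match, at chr12:55492648-55492696 (-) and chr5:90903772-90903841 (+); both were picked after their values were seen. Capitals mark the match, read on the opposite strand for Nfkbia.
Nfkbia: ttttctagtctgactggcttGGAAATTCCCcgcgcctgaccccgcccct
Cxcl2: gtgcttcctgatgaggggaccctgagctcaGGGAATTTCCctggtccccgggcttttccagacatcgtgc
Nfkbia was at 172, 237, 228 and 229 CPM at 0 h and at 710, 619, 805 and 593 CPM at 6 h, below the 3 h mean of 1200 CPM. Cxcl2 went from 94.3 ± 9.20 to 209 ± 45.2 CPM.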

How the data were processed

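RNA from 12 Ics libraries was measured by sequencing. Per the submitters' processing notes, kallisto 0.46.1 and build GRCm38 were used; the authors deposited 1 table of estimated counts per gene symbol, named as length-scaled TPM, and how transcripts were summed to genes is not given in the sources used here. Columns were matched to samples by their labels, and 0 columns had no sample. Values were rounded to whole numbers and fitted with edgeR 4.0.16 in R 4.3.3 (TMM scaling, filterByExpr with a minimum count of 10, glmQLFit and glmQLFTest, group means of 0, 3 and 6 h, contrast 6 h minus 0 h), with Benjamini-Hochberg adjustment over 14996 genes. The depth was 24827887 to 29502869 estimated counts per compared library. No 2 libraries were identical: chi-square per degree of freedom between libraries of the same time was 9.28 to 20.7.

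Tested on data simulated from the 0 h means over 14996 genes, the fit recovered 44 of 50 genes changed by 1 on the log2 scale and 35 of 50 changed by -1. It recovered 50 of 50 changed by 2 or by -2, with 11 false calls among 190. Only these genes were changed, as many up as down, each with a 0 h mean above 1 CPM, and 3 h was set equal to 0 h. In the real comparison 60% of genes were called. The simulation therefore does not give the error rate of these data, nor test the scaling where most genes change.

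The comparison, the 45 gene lists and 20 symbol families were chosen with earlier results of these data known. Genes were named by a rule: among passing genes, the 15 largest rises and 15 largest falls where the higher mean reached 10 CPM, the 10 largest CPM gains and losses, the 4 lowest p-values per list plus every member opposed to its list's majority, up to 2 per family in each direction, and all neutrophil markers; predicted (Gm) and Rik genes were only counted. Of 219 genes given by library, 39 lay outside the rule: among the listed members and windows shown these include Gss, Cat, Sqle, Bcl2l11, Klf2, Mcoln1 and Nfkbia, chosen after their values were seen. Positions are from GENCODE vM21 by symbol (14457 of 14996 tested genes matched; H1f2 did not), promoters from RefSeq GRCm38.p6. Alternatives were other scalings, filters, DESeq2 1.42.0, limma 3.58.1 voom with quality weights, a block on the library number, and each library left out. Some list members are not reported here.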

Additional observations from a re-analysis of the deposited data

Results flagged for a closer look

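A library stood apart from the other 3 of its time in 22 of 438 groups of 4 libraries examined, with a gap to the nearest library, as a share of the group's range, above Dixon's critical value for 4 samples. Chance flags about 1 in 20 groups. Of the 22, library m1 at 0 h held 7 and m3 at 6 h held 5.

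At 0 h, m1 had 95.8 CPM of Slc7a11 against 111 to 113 CPM in the others, 216 of Ctsb against 197 to 200, 21.2 of Mcoln1 against 23.1 to 23.4, 131 of Eif4b against 120 to 122, 123 of Ccnt1 against 184 to 194, 2010 of mt-Co1 against 1680 to 1710 and 172 of Nfkbia against 228 to 237. Library m3 at 0 h had 3.26 CPM of Pou2f2 against 1.80 to 1.99. Library m4 at 0 h had 116 CPM of Kcnj2 against 90.4 to 94.8, 6160 of Retnlg against 6870 to 7000 and 10.4 of Zbtb16 against 8.27 to 8.54.

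At 6 h, m1 had 61.5 CPM of Hsp90b1 against 56.4 to 56.9, 4.63 of Nop58 against 2.96 to 3.02, 2.95 of Rrp1b against 4.12 to 4.29 and 10.8 of Saa3 against 7.75 to 8.22. Library m2 had 2.23 CPM of Txndc5 against 0.856 to 1.05, and it was also the library with the highest B cell marker sum, 928 CPM. Library m3 had 50.9 CPM of Dnajb9 against 41.5 to 42.8, 93.3 of Herpud1 against 81 to 82.3, 99.6 of Cd68 against 73.7 to 77.1, 1.44 of F13a1 against 1.03 to 1.06 and 135 of Vegfa against 92.7 to 97.3. Library m4 had 930 CPM of Cxcr2 against 826 to 843.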

How the results depend on the processing

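None of the 219 genes with values by library changed direction under an alternative that tested it (204 of them under the 5 CPM filter and 216 with only the 8 libraries); other named genes were not followed. By edgeR, the counts of 4439 higher and 4560 lower genes were 4630 and 4358 with DESeq2's size factors, 3455 and 5785 by library totals alone, and 4566 and 4363 with only the 8 libraries; DESeq2 gave 4798 and 4344, and limma voom 4546 and 4710. Requiring 5 CPM in 4 libraries, which tests 8756 genes, left 756 genes at least 2-fold higher and 852 lower; no filter gave 1737 and 2596. Of 90 list counts, that 5 CPM filter moved 16 by over 1.5 times, library totals alone 10, and leaving out m1 at 0 h 5; the other alternatives moved 0 to 4. Leaving out 1 library at a time gave 4284 to 4483 higher, 4098 to 4392 lower, 1363 to 1494 at least 2-fold higher, 1917 to 2109 at least 2-fold lower, 3 to 7 lost and 9 to 15 gained genes. Limits of 2 and 0.2 CPM gave 11 lost genes. By totals alone the rises of Tkt and Csf3r no longer passed, and Cxcr2 and S100a8 passed as lower; Mxd1 passed under DESeq2, with the 8 libraries only and under the block. A block on the numbers m1 to m4 gave 4478 higher and 4673 lower genes, 1392 and 2035 of them at least 2-fold. Deviations of same-numbered libraries correlated at 0.13, 0.15, 0.05 and 0.09, and those of all other pairs at 0.0018 or less. B cell marker sums ranked m2, m4, m1 and m3 from highest to lowest at 0, 3 and 6 h. Red cell marker sums ranked m1, m4, m3 and m2 at each of these times. Each library thus correlated best with its own number, a hint from the data and not the design. As not all 4 correlations were over 0.1, the main fit did not take the numbers as pairs. Genes near the filter are limited by depth, and no value in these libraries replaces a culture left unstimulated for 6 h.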

Other observations

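Further gene groups gave the following counts at 6 h against 0 h. Polyamine genes rose in 7 of 12 cases and fell in 2: the spermine oxidase gene Smox, the arginase gene Arg2 and the acetyltransferase gene Sat1 rose by 1.56, 1.52 and 1.12, and the spermidine synthase gene Srm fell from a mean of 1.83 to 0.23 CPM. Purine and pyrimidine synthesis genes fell in 7 of 16 cases and rose in 1, with Atic at -1.61 and Ctps2 at 0.75. Serine and one-carbon genes were 4 higher and 2 lower of 13, and 3 and 3 by totals alone. Clock genes were 5 higher and 5 lower of 17, with Bhlhe40 at 1.77. Genes of the actin cytoskeleton were 9 higher and 12 lower of 29, with a median of 0.01 that was -0.15 by totals alone, and second messenger enzymes were 7 higher and 8 lower of 24, and 6 and 10 by totals alone, with Pde7a at -2.14. Of 17 genes for secreted growth factors and matrix proteins 5 rose and 8 fell; the matrix protein gene Spp1 and the vessel growth factor gene Vegfa rose by 3.36 and 1.47, and the growth factor gene Csf3 passed as higher at under 0.5 CPM in every library, so no fold is drawn.

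Counts of gene families are to be read against 29.6% higher and 30.4% lower among all genes. TMEM genes and ubiquitin-specific peptidases lay near both shares. RAB GTPases of vesicle traffic were 21 higher and 15 lower of 47, with Rab32, of lysosome-related organelles, at 1.53. Mitochondrial carriers of the SLC25 family were 7 higher and 12 lower of 40, with the pyrimidine nucleotide carrier gene Slc25a33 at 2.12. The SLC7 and SLC38 amino acid carriers were 10 higher and 3 lower of 15. Potassium channel genes were 2 higher and 6 lower of 19, and orphan and adhesion receptors 12 higher and 21 lower of 52. Zinc finger genes were 92 higher and 69 lower of 313, and 63 and 108 by totals alone; TMEM genes were 45 and 43 of 147, and 36 and 57 by totals alone. Histone genes were 10 higher and 6 lower of 34, and 4 and 10 by totals alone. Ubiquitin-specific peptidases were 14 and 14 of 47, and 9 and 17 by totals alone, and initiation factors 29 and 13 of 55. Predicted genes were 301 higher and 572 lower of 1782, and RIKEN clone genes 139 and 207 of 693.

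Of the other marker lists, mast cell and basophil genes were 0 higher and 2 lower of 7. Their sum was 1120 to 1300 CPM at 0 h, 2760 to 3040 CPM at 3 h and 726 to 794 CPM at 6 h. Cma1 and Tpsb2 were at 0 at 6 h. Which members carried the sum is not given here, so it does not measure a share of mast cells or basophils. B cell genes were 0 higher and 4 lower of 9. T and NK cell genes were 0 higher and 2 lower of 3, with sums of 15 to 18.6 CPM at 0 h and 6.58 to 8.53 CPM at 6 h. Dendritic cell genes were 1 higher and 2 lower of 8, with sums of 62.6 to 82.5 CPM and 333 to 539 CPM that were mostly Itgax, at means of 61.4 and 398 CPM. Stem and progenitor genes were 0 higher and 3 lower of 6, with sums of 63.2 to 84.4 CPM and 51.8 to 67.3 CPM.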
